A study of Mus musculus with 6 samples.

Results

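The transcripts examined here are the 40 genes of fatty acid uptake, the carnitine shuttle and mitochondrial and peroxisomal β-oxidation in the mouse heart. They were taken by symbol from a list written by step of the pathway, and the rule uses no measured value, although earlier results of these data were known when the list was made. All 40 were found among the 24346 genes of the files, and all 40 passed the filter on low values that left 12923 genes for testing. Male C57BL/6 J mice were fed normal chow (C group), a high fat, high cholesterol, high sucrose diet with bile acid (NASH diet, N group), or that diet together with pemafibrate at 0.1 mg/kg (NP group), a drug that modulates the nuclear receptor PPARα. The 3 groups had 2 heart libraries each, and the labels give 3 weeks of feeding, whereas the study's methods give a longer period. Neither source says whether a library was made from 1 heart or from several, or which part of the heart was taken, so *P* values measure the spread between these libraries, which may be technical.

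The heart burns mainly fatty acids. Lipoprotein lipase frees them from circulating triglyceride, CD36 and the fatty acid transport proteins bring them into the cell, and the heart fatty acid-binding protein carries them in the cytosol. Acyl-CoA synthetase activates them, the carnitine shuttle moves long chains across the inner mitochondrial membrane, and the β-oxidation spiral shortens them, passing electrons to the respiratory chain through the electron transfer flavoprotein. Peroxisomes shorten very long and branched chains. Many of these genes are known targets of PPARα, the receptor that pemafibrate acts on.

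Levels are given as FPKM, read counts divided by transcript length and by library size, so that genes can be set side by side. Where values are given as pairs without a group, they are the libraries of the C, the N and the NP group in that order, replicate 1 first. Differences are given on the log2(FPKM + 1) scale. The files give no counts. From the smallest steps between low values of 3989 genes with 1 annotated transcript, the depth was about 26100000 and 21400000 reads in the C libraries and between 8150000 and 8730000 reads in each N or NP library, so depth and diet cannot be told apart in comparisons with the C group. The lowest member in every library, *Abcd2*, still had between about 43 and 195 reads. Cardiomyocyte markers such as *Myh6* and *Tnnt2* were high in all 6 libraries, their 11 genes summing to between 71940 and 98340 FPKM. The summed FPKM of 6 atrial markers was 310 and 175 in the C libraries and between 3670 and 6195 in the N and NP libraries, and the atrial myosin light chain *Myl7* was higher in N and in NP than on chow by 7.85 in both cases on the log2 scale (limma adjusted *P* = 0.00304 and 0.0222). Of the 6 atrial markers, none was at 0 in every library. Summed hepatocyte markers, 8 genes including *Alb*, were 566 in replicate 2 of the C group and between 49.4 and 102 in the other libraries, with none at 0 in every library. In bulk tissue, fewer cells of a type and less RNA per cell cannot be told apart, and the part of these differences in the results was not tested.

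The share of the whole transcriptome taken by the 40 genes was large and was lower on the NASH diet. Together they made up 4.19% and 4.25% of the summed FPKM on chow, 3.80% and 3.64% on the NASH diet alone and 3.58% and 3.66% with pemafibrate. The C libraries therefore lay above the other 4, and the N and NP libraries overlapped. *Fabp3* alone, the heart fatty acid-binding protein, took 1.58% and 1.57% on chow, 1.30% and 1.38% on the NASH diet alone and 1.09% and 1.35% with pemafibrate. Without *Fabp3* the shares were 2.61% and 2.68%, 2.50% and 2.26%, and 2.50% and 2.30%.

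Levels differed widely between the genes. *Fabp3* reached 10233 FPKM in replicate 2 of the C group, followed by *Lpl*, *Ech1* and *Hadhb*, all between 1270 and 2273 in every library. At the other end, *Abcd2*, a peroxisomal transporter, lay between 0.92 and 1.70. The mitochondrial genes of the spiral lay between 125 and 1618, whereas the peroxisomal genes, apart from *Scp2*, lay between 0.92 and 61.7.

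**Figure D1:**
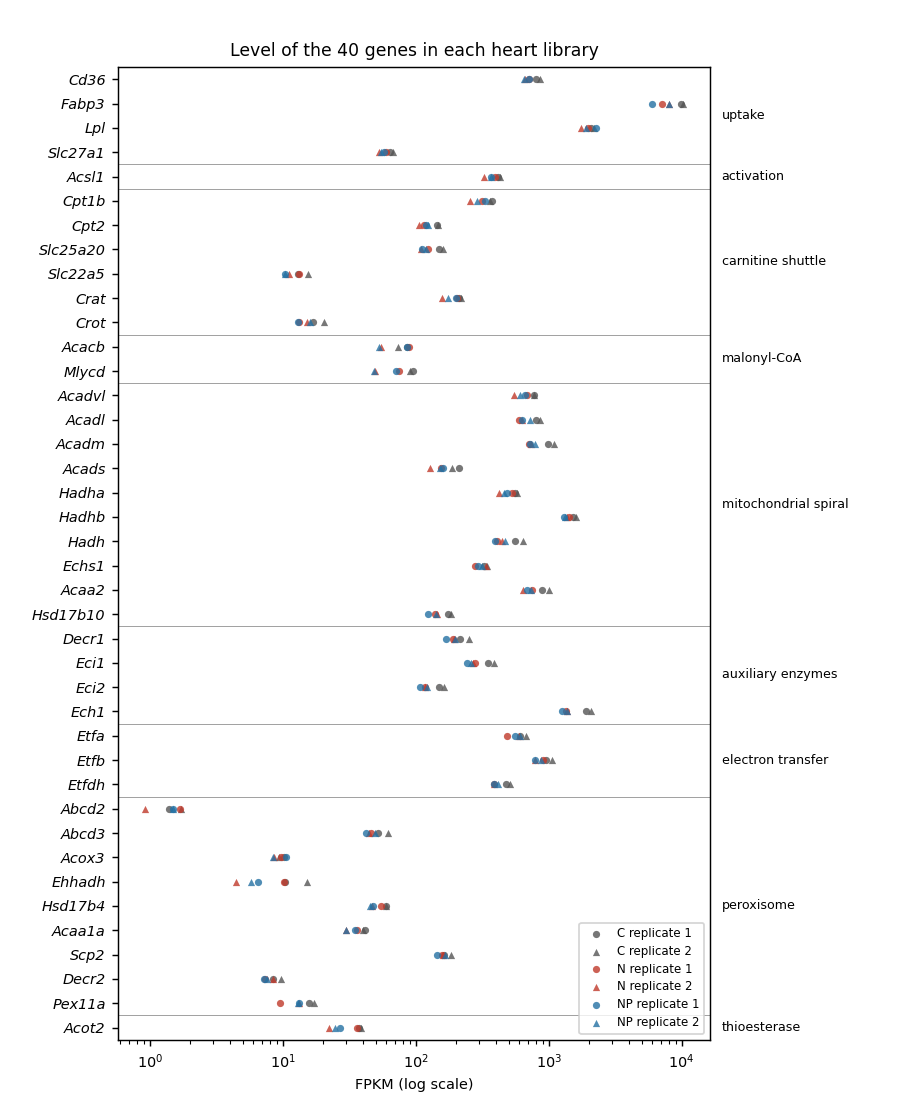
FPKM on a log axis of each of the 40 genes (rows, by step of the pathway) in each library, with circles for replicate 1 and triangles for replicate 2. The C libraries, in grey, lie at or near the right of most rows, and *Fabp3* is the highest and *Abcd2* the lowest gene in every library.

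With the NASH diet alone against chow (N against C), each of the 40 genes had a lower mean, with a median log2 difference of -0.33 and a range from -0.78 for *Ehhadh* to -0.10 for *Acox3*. Both N libraries lay below both C libraries for 35 of the 40 genes, against 27% of all genes tested, and a difference below 0 was found in 55.1% of all genes. Abundant genes were lower more often. Of the 768 with a mean of 100 FPKM or more, 49.5% lay lower without overlap and 77.6% had a difference below 0. No gene of the 40 passed the test (0 of 40 with an adjusted *P* value under 0.05 in limma, against 1.55% of all genes in either direction), and the smallest adjusted *P* value was 0.0971, for *Ech1*. At an unadjusted *P* value under 0.05 in limma, 16 of the 40 were lower, against 6.76% of all genes and 165 of the 768 abundant ones. The standard errors of the 40 differences lay between 0.10 and 0.36, and a *P* value that misses the threshold does not show that the groups were alike.

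The size of this difference depended on how the libraries were scaled, since all FPKM of a library added up to 625457 and 652311 on chow but to 553956 and 577233 in N. When FPKM were scaled to the same total, the median of all genes moved from -0.03 to 0.12 and that of the 40 genes from -0.33 to -0.16, with 36 of 40 lower. Relative to the median of all genes, the 40 genes were lower by 0.30 as deposited, by 0.27 with the same total and by 0.19 with quantile normalization, under which 38 of 40 were lower. When the mean of 11 cardiomyocyte markers was set equal in all libraries, an alternative added after the values were seen, 20 of 40 were lower and the median was -0.00165. The median of all genes was then 0.299, with 11.1% of all genes lower. Relative to that median, the 40 genes were at -0.3, and each of the 40 lay below it. The markers did not differ alike between N and C. They ran from -0.83 for *Myl2* and -0.65 for *Myl3* to -2.1e-05 for *Actc1* and 0.05 for *Atp2a2*. An equal mean therefore does not make each marker equal. By replicate number, the median was -0.19 between the N and C libraries of replicate 1, with 37 of 40 lower, and -0.43 between those of replicate 2, with 40 of 40 lower.

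**Figure D2:**
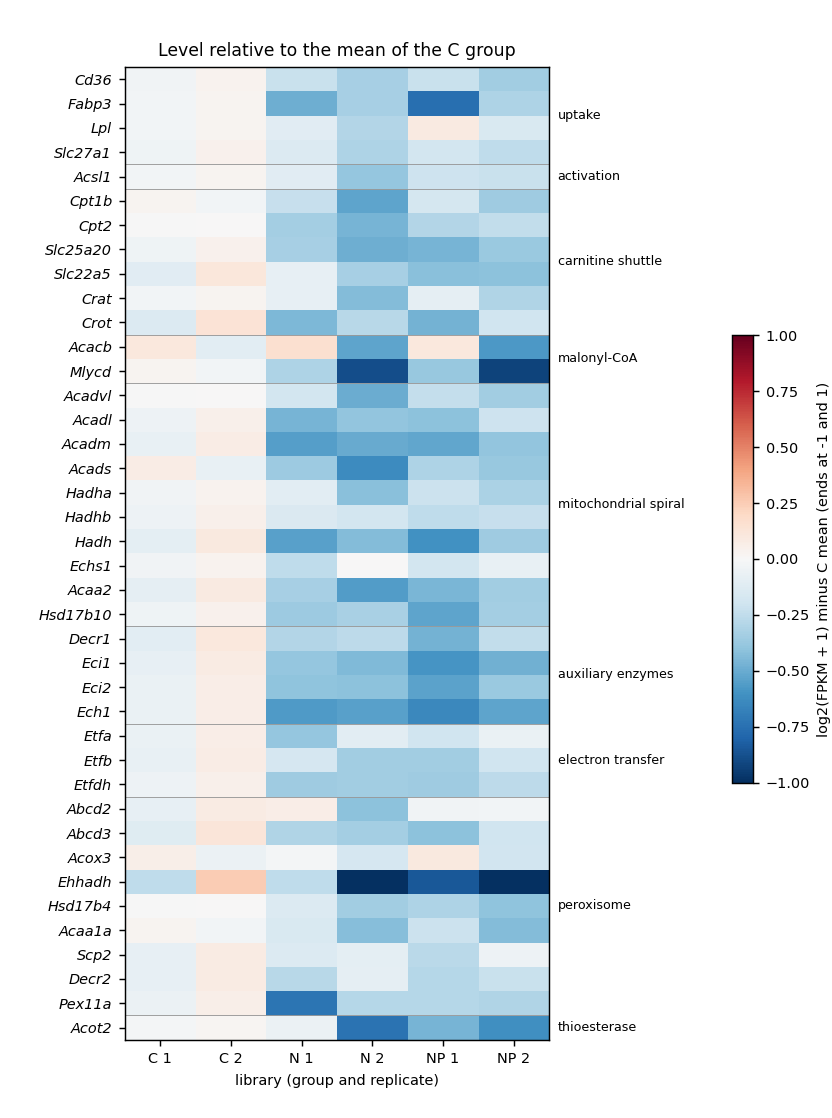
Level of each gene (rows, by step) in each library (columns) as log2(FPKM + 1) minus the mean of the C group, in blue where lower and red where higher, with colours ending at -1 and 1. In the N libraries 38 and 39 of the 40 genes lie below the C mean and in the NP libraries 37 and 40 at the scaling of the files, with *Ehhadh* and *Mlycd* deepest in replicate 2 of the N and NP groups.

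The promoters were searched for the letters bound by PPARα and its relatives, on both strands, in the 300-base windows that RefSeq starts give for 33 of the 40 genes. The full PPAR element, 2 copies of AGGTCA in the same direction with any 1 base between them, was found in none of the 33, against 0.0481% of 27025 genes, and the oestrogen-related receptor site TCAAGGTCA in none, against 0.466%. The half-site AGGTCA, which is part of both, was found in 6 of 33 (18.2%), against 18.1% of all genes, in *Acacb*, *Acadm*, *Acadvl*, *Cd36*, *Echs1* and *Scp2*. These windows are short, and no match says only that the letters are not in them. The 250 bases before the start of the 2 genes with the largest moderated statistics between N and C are shown, with the half-site in capitals. *Ech1* (GRCm38.p6, chr7:28825088-28825337, plus strand) holds none, and *Acadm* (chr3:153944644-153944893, minus strand) holds 1, on the opposite strand to the gene.
Ech1: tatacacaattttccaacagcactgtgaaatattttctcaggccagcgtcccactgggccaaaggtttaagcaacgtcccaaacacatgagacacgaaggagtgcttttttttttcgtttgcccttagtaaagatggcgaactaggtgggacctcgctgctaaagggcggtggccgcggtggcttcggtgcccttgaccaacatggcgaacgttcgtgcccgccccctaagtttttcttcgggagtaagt
Acadm: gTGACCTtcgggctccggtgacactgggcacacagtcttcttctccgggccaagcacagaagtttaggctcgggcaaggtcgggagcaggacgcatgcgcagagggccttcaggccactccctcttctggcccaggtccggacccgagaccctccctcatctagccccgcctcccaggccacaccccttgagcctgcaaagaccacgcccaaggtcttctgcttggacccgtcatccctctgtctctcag

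Of the 4 uptake genes, *Fabp3* (chromosome 4 of mm10, 130308738 to 130315463 in RefSeq, GRCm38.p6) had the largest difference. Its FPKM was 9888 and 10233 on chow, 7176 and 7985 on the NASH diet alone and 5957 and 8109 with pemafibrate. The C libraries stood above all others, while the NP libraries spread around the N libraries. The log2 difference for N against C was -0.41 (standard error, SE, 0.17, limma adjusted *P* = 0.351). *Cd36* (chromosome 5, 17781690 to 17888959), the fatty acid translocase of the plasma membrane, had an FPKM of 809 and 854 on chow, 712 and 661 on the NASH diet alone and 714 and 653 with pemafibrate, a log2 difference of -0.28 between N and C (limma adjusted *P* = 0.324). *Lpl*, which encodes lipoprotein lipase, was close in all groups, with 2094 and 2177, 1976 and 1744, and 2273 and 1921 FPKM. The NP and C libraries of *Lpl* overlapped. *Slc27a1*, a fatty acid transport protein, had a log2 difference of -0.23 between N and C (95% interval -0.50 to 0.05).

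*Acsl1*, the main acyl-CoA synthetase of the heart, had an FPKM of 419 and 434 on chow, 394 and 325 on the NASH diet alone and 370 and 366 with pemafibrate. Its log2 difference between N and C was -0.25 (limma adjusted *P* = 0.423), with the N and NP libraries overlapping.

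In the carnitine shuttle, all 6 genes were lower in the N group, without overlap for 5 of them, and none passed the test. *Cpt1b*, the muscle form of the outer-membrane carnitine palmitoyltransferase and the rate-limiting entry step, had an FPKM of 378 and 365 on chow, 317 and 257 on the NASH diet alone and 329 and 290 with pemafibrate, a log2 difference of -0.38 between N and C (limma adjusted *P* = 0.293). *Cpt2* (chromosome 4, 107903982 to 107923589), its partner on the inner membrane, had 146 and 147, 115 and 106, and 120 and 124 FPKM, a log2 difference of -0.40 (SE 0.10, limma adjusted *P* = 0.149). *Slc25a20* (chromosome 9, 108662136 to 108684642), which exchanges acylcarnitine for carnitine across the inner membrane, had 151 and 160, 123 and 110, and 112 and 120 FPKM, a log2 difference of -0.41 (limma adjusted *P* = 0.182). For *Cpt2* and *Slc25a20* the 4 libraries of the NASH diet all lay below the 2 of the C group. *Slc22a5*, the carnitine importer of the plasma membrane, had 13.1 and 15.4 FPKM on chow, 13.3 and 11.1 on the NASH diet alone and 10.4 in both libraries with pemafibrate. Of the acyltransferases, *Crat* for short chains had a log2 difference of -0.26 and *Crot* of peroxisomes one of -0.36 (limma adjusted *P* = 0.488 and 0.359).

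Malonyl-CoA inhibits entry into the shuttle. *Acacb* makes it at the mitochondrion and *Mlycd* (chromosome 8, 119394852 to 119421838) breaks it down. *Acacb* had an FPKM of 85.8 and 74.1 on chow, 89.4 and 55.0 on the NASH diet alone and 85.9 and 53.3 with pemafibrate. *Mlycd* had 94.7 and 91.2, 74.8 and 49.7, and 71.4 and 48.4. For both genes replicate 2 lay well below replicate 1 in N and in NP, with a median log2 difference between the replicates over the pair of -0.64 in N, -0.61 in NP and -0.13 in C. The log2 difference between N and C was -0.18 for *Acacb* (95% interval -0.93 to 0.56) and -0.60 for *Mlycd* (95% interval -1.22 to 0.02; limma adjusted *P* = 0.836 and 0.347). In N and NP the replicate 2 files carry the weeks of feeding in their names and the replicate 1 files do not, and whether this marks a batch was not tested.

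For the 10 genes of the mitochondrial spiral the median was -0.39 for N against C on the log2 scale, all 10 lower and 9 without overlap. *Acadm* (chromosome 3, 153922353 to 153944643), the medium-chain acyl-CoA dehydrogenase, had an FPKM of 990 and 1093 on chow, 708 and 733 on the NASH diet alone and 727 and 793 with pemafibrate. All 4 libraries of the NASH diet were below the C libraries by a wide margin. The log2 difference was -0.53 (SE 0.11, limma adjusted *P* = 0.111), with a 95% interval from -0.81 to -0.25. *Acads* (chromosome 5, 115110299 to 115119346), the short-chain enzyme, had 210 and 188, 154 and 129, and 160 and 153 FPKM, a log2 difference of -0.50 (limma adjusted *P* = 0.165). For the long-chain dehydrogenase *Acadl* and the very-long-chain *Acadvl* the differences were -0.43 and -0.34 (limma adjusted *P* = 0.190 and 0.324).

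Later reactions of the spiral differed more widely among themselves. *Hadh* (chromosome 3, 131233419 to 131272101), the short-chain 3-hydroxyacyl-CoA dehydrogenase, had an FPKM of 561 and 639 on chow, 412 and 444 on the NASH diet alone and 393 and 467 with pemafibrate, a log2 difference of -0.49 between N and C (limma adjusted *P* = 0.190). The thiolase *Acaa2* had 885 and 999, 748 and 640, and 686 and 738, a difference of -0.44 (limma adjusted *P* = 0.210). *Echs1*, the short-chain enoyl-CoA hydratase, had 327 and 343, 281 and 336, and 295 and 317, so that its N and C libraries overlapped. *Hsd17b10*, which also acts in isoleucine breakdown and mitochondrial tRNA processing, had a difference of -0.34.

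*Hadha* and *Hadhb* encode the α and β subunits of the mitochondrial trifunctional protein, which carries out the later reactions on long chains. They lie head to head on chromosome 5, and their 300-base promoter windows in RefSeq share 228 bases. *Hadhb* had the higher level, with an FPKM of 1511 and 1618 on chow, 1418 and 1377 on the NASH diet alone and 1312 and 1334 with pemafibrate. *Hadha* had 556 and 582, 528 and 426, and 490 and 458. The log2 differences between N and C were -0.16 and -0.26 (limma adjusted *P* = 0.523 and 0.438), among the smaller ones of the spiral.

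The 4 auxiliary enzymes, which bring double bonds of unsaturated chains into line with the spiral, were the step with the lowest median between N and C, -0.41, among steps of 3 or more genes. *Ech1* (chromosome 7, 28825338 to 28832239), a dienoyl-CoA isomerase, had an FPKM of 1899 and 2084 on chow, 1345 and 1365 on the NASH diet alone and 1270 and 1378 with pemafibrate. Its 4 libraries of the NASH diet lay close together, below both C libraries. The log2 difference between N and C was -0.55 (SE 0.11, 95% interval -0.83 to -0.28, limma adjusted *P* = 0.0971). *Eci1* (chromosome 17, 24426683 to 24439316), an enoyl-CoA isomerase, had 348 and 388, 280 and 271, and 244 and 263 FPKM, and was one of the few genes whose NP libraries lay below its N libraries. *Eci2* had 150 and 165, 118 and 118, and 108 and 121. The differences between N and C were -0.41 for both isomerases (limma adjusted *P* = 0.174 and 0.186), and -0.27 for the dienoyl-CoA reductase *Decr1* (limma adjusted *P* = 0.402).

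Electrons leave the first reaction through the flavoprotein subunits *Etfa* and *Etfb* and the ubiquinone oxidoreductase *Etfdh*. *Etfdh* had an FPKM of 478 and 515 on chow, 388 and 390 on the NASH diet alone and 387 and 413 with pemafibrate, a log2 difference of -0.35 between N and C (limma adjusted *P* = 0.212). *Etfb* had 961 and 1067, 900 and 795, and 795 and 882, a difference of -0.26, and *Etfa* had 610 and 672, 489 and 594, and 556 and 612, a difference of -0.25. The NP and C libraries of *Etfa* overlapped, and those of the other 2 genes did not.

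Of the 9 peroxisomal genes, all were lower in N than on chow, 7 without overlap, with a median of -0.24. *Ehhadh* (chromosome 16, 21761285 to 21787834), the peroxisomal bifunctional enzyme, had an FPKM of 10.3 and 15.1 on chow, 10.3 and 4.45 on the NASH diet alone and 6.51 and 5.73 with pemafibrate. It was highest in replicate 2 of the C group, and one N library was level with the other C library. The log2 difference between N and C was -0.78 (SE 0.36, limma adjusted *P* = 0.383). That C library also had the high hepatocyte markers, with an *Alb* FPKM of 211 against 0.555 to 10.8 in the others, and their part in the value of *Ehhadh* was not tested. *Pex11a*, a peroxisomal membrane protein of peroxisome division, had 15.7 and 17.1, 9.503 and 13.3, and 13.2 and 13.1 FPKM, a difference of -0.51 between N and C (limma adjusted *P* = 0.245). The sterol carrier and thiolase *Scp2* was the highest of the step, with 164 and 183, 157 and 161, and 144 and 167 FPKM, and a difference of -0.12 (limma adjusted *P* = 0.714). *Abcd3*, *Acaa1a*, *Hsd17b4*, *Decr2*, *Abcd2* and *Acox3* differed by -0.32, -0.29, -0.24, -0.19, -0.17 and -0.10. *Acot2*, a mitochondrial acyl-CoA thioesterase, had 37.3 and 38.5 FPKM on chow, 36.4 and 22.4 on the NASH diet alone and 27.1 and 24.5 with pemafibrate, a difference of -0.40 (limma adjusted *P* = 0.476).

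**Figure D3:**
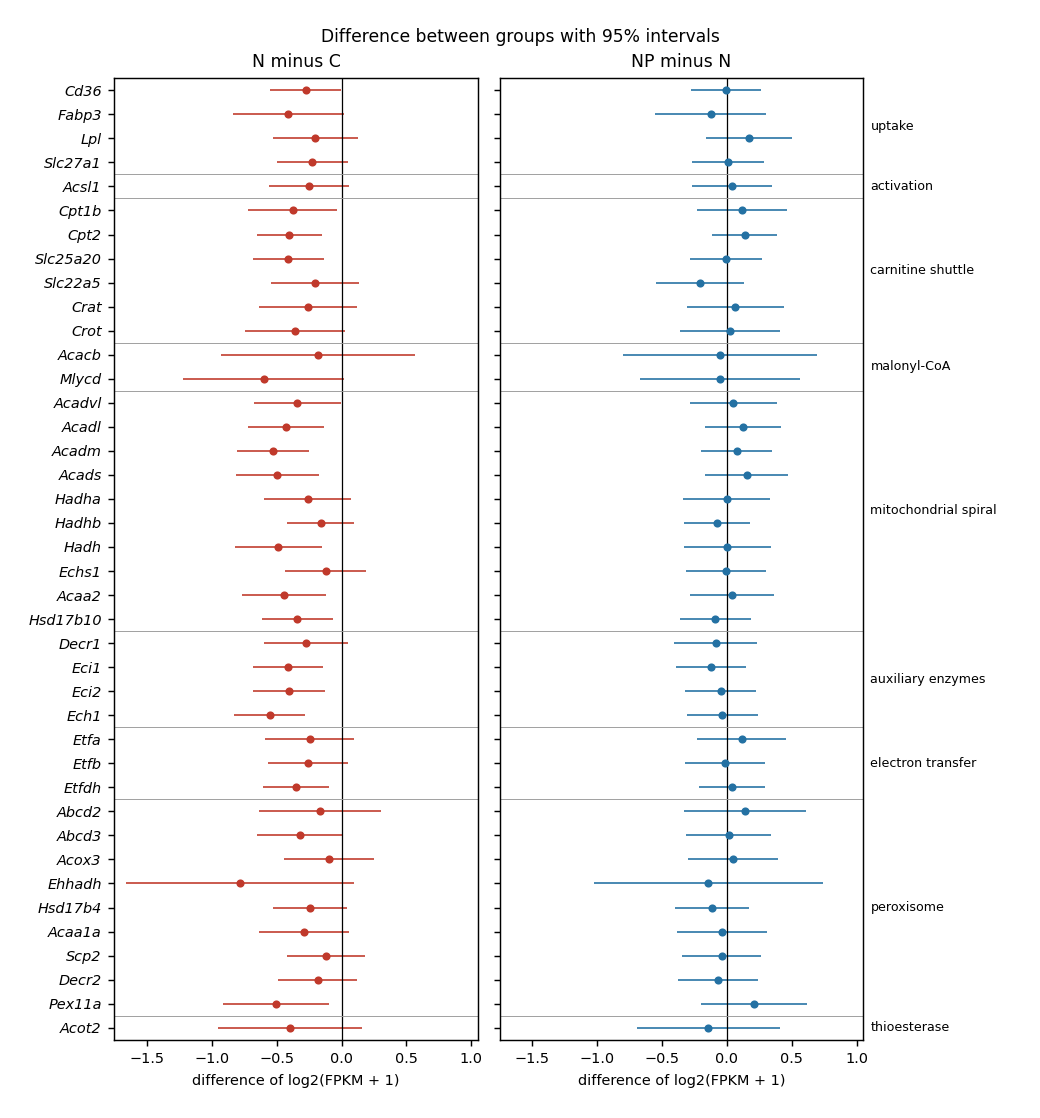
Log2 difference (dots) with its 95% interval from limma (bars) for each gene, for N against C on the left and between the NP and N groups on the right. All 40 dots on the left lie below 0, and all 40 intervals on the right include 0. Once libraries are scaled to the same total, 36 on the left lie below 0, against 30% of all genes. With cardiomyocyte markers set equal, 20 do, against 11.1% of all genes.

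With pemafibrate against the NASH diet alone (NP against N), the 40 genes were spread around 0, with a median log2 difference of -0.00385, 21 lower and 19 higher, against 44% of all genes lower. The number lower was between 17 and 24 under the 3 other scalings fixed with the design, against 39.7% to 47.9% of all genes. It was 39 when the cardiomyocyte markers were set equal, against 84.4% of all genes. The median was then -0.196 for the 40 genes and -0.167 for all genes. None of the 40 passed the test (0 of 40 in limma, against 1.39% of all genes), none had an unadjusted *P* value under 0.05, against 8.04% of all genes, and the smallest adjusted *P* value was 0.889. Among all genes, those that passed were 0 higher and 179 lower. The libraries did not overlap for 4 genes, against 29.8% of all genes. *Cpt2* was the one that was higher in the NP libraries, by 0.14 (95% interval -0.11 to 0.39), which turned to -0.0542 with cardiomyocyte markers set equal, and *Slc22a5*, *Hadhb* and *Eci1* were lower, by 0.21, 0.08 and 0.12 on the log2 scale. These 4 were named after their values were seen.

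By replicate number, the median between the NP and N libraries was -0.07 for replicate 1, with 29 of 40 lower, and 0.07 for replicate 2, with 13 of 40 lower, so that the replicates gave opposite directions. The genes with the largest moderated statistics besides *Slc22a5* and *Cpt2* were *Lpl*, *Pex11a*, *Acads* and *Eci1*, at 0.17, 0.21, 0.15 and -0.12 on the log2 scale (limma adjusted *P* = 0.924, 0.924, 0.935 and 0.945), of which *Lpl* and *Acads* turned below 0 with cardiomyocyte markers set equal. The size of these values depended on single libraries, and for *Pex11a* the sign did too. Without N replicate 1 or N replicate 2 in turn, *Slc22a5* was at -0.08 and -0.33, *Acads* at 0.28 and 0.02 and *Pex11a* at -0.01 and 0.43. Without NP replicate 1 or NP replicate 2, *Lpl* was at 0.05 and 0.29 and *Eci1* at -0.07 and -0.17. The intervals do not show that the groups were alike. For *Hadha* the 95% interval ran from -0.34 to 0.33, and for *Ehhadh*, the widest, from -1.02 to 0.74.

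With pemafibrate against chow (NP against C), the 40 genes had a median log2 difference of -0.31, all 40 lower, against 52.8% of all genes lower. After scaling to the same total 35 were lower, against 27.6% of all genes, and after quantile normalization 36, against 48.8%. With cardiomyocyte markers set equal 35 were lower, against 26.8% of all genes. The libraries did not overlap for 34 genes, all lower, against 23% of all genes. Of the 768 abundant genes, 49.6% lay lower without overlap and 78.9% had a difference below 0. Again 0 of 40 passed the test in limma, against 0.0387% of all genes. At an unadjusted *P* value under 0.05 in limma, 19 were lower, against 4.18% of all genes and 109 of the 768 abundant ones. Both this comparison and that of the N group use the same C libraries, so they are not independent. The largest moderated statistics were those of *Ech1*, *Eci1*, *Eci2*, *Acadm*, *Hsd17b10* and *Slc25a20*, at -0.59, -0.54, -0.45, -0.45, -0.43 and -0.42 on the log2 scale (limma adjusted *P* = 0.375, 0.425, 0.488, 0.489, 0.504 and 0.507). By replicate number the median was -0.29 and -0.34.

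At the scaling of the files, the only one run for the lists that follow, lower levels on the NASH diet were also seen in other genes of energy metabolism and in abundant transcripts. Between the N and C groups, the median was -0.31 for 18 genes of the TCA cycle, with 18 lower, -0.33 for 26 nuclear-encoded respiratory chain genes, with 26 lower, and -0.32 for 11 cardiomyocyte markers, with 10 lower. The 10 include *Actc1*, at -2.1e-05. Of the 768 most abundant genes (mean level 100 FPKM or more), 77.6% were lower, with a median of -0.20. Glucose use, 23 genes of glucose uptake, glycolysis and pyruvate dehydrogenase, had a median of -0.13, with 17 lower. Of the 768 abundant genes, 19 were higher and 1 was lower past the limma test in this comparison. None of the genes of the other 4 lists passed it, and 8, 12, 5 and 4 genes of the TCA cycle, respiratory chain, cardiomyocyte and glucose lists had an unadjusted *P* value under 0.05, all lower. With the NP group, the medians against the C group were -0.18 for the TCA cycle, -0.21 for the respiratory chain and -0.12 for cardiomyocyte markers, beside -0.31 for the 40 genes. Differences between the lists were not tested.

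**Figure D4:**
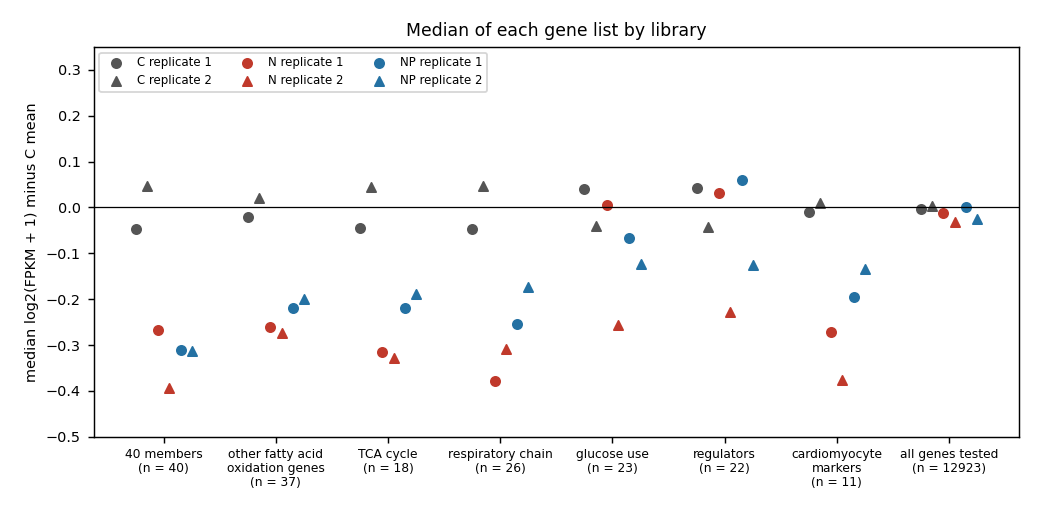
Median over each gene list of log2(FPKM + 1) minus the C mean, by library, with circles for replicate 1 and triangles for replicate 2. The 40 genes lie at -0.27 and -0.39 in the N libraries and -0.31 in both NP libraries, the TCA cycle, respiratory chain and cardiomyocyte lists also lie below 0 in all 4, at the scaling of the files.

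A ratio within 1 library is not altered by multiplying that library by a factor. The summed FPKM of the 40 genes was 0.278 and 0.282 of that of the cardiomyocyte markers on chow, 0.292 and 0.282 on the NASH diet alone and 0.258 and 0.255 with pemafibrate. Relative to the respiratory chain genes the ratios were 0.676 and 0.673, 0.704 and 0.658, and 0.619 and 0.646. In both ratios the NP libraries were the lowest. In the ratio to cardiomyocyte markers the N libraries were the highest, though the lower of them, at 0.2824, was close to the higher C library, at 0.2819. In the ratio to respiratory chain genes N and C overlapped. *Fabp3* carries much of these sums, and without it the ratios to cardiomyocyte markers were 0.173 and 0.178, 0.193 and 0.175, and 0.180 and 0.161, which overlapped between all 3 groups. Those to respiratory chain genes were then 0.4209 and 0.4247, 0.4635 and 0.4079, and 0.4314 and 0.4065, which also overlapped between all 3 groups.

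Of 39 other genes of the pathway, 37 were tested, and none passed in any comparison. For N against C their median was -0.29, with 33 lower, and 9 were lower and 2 higher at an unadjusted *P* value under 0.05 in limma. The acyl-CoA synthetase *Acsl5*, named after its values were seen, lay on the other side, with an FPKM of 8.40 and 8.99 on chow, 11.8 and 13.3 on the NASH diet alone and 7.51 and 8.04 with pemafibrate. The N libraries stood above the other 4, at 0.48 between N and C and -0.62 between NP and N on the log2 scale (limma adjusted *P* = 0.138 and 0.0955). Macrophage markers followed the same order, with summed FPKM over 9 genes of 357 to 400 on chow, 626 to 746 on the NASH diet alone and 269 to 305 with pemafibrate, none at 0 in every library, and their part in the values of *Acsl5* was not tested. *Cpt1a*, the form of carnitine palmitoyltransferase that dominates in liver, had 21.3 and 23.2 FPKM on chow, 24.97 and 16.9 on the NASH diet alone and 15.2 and 14.6 with pemafibrate (limma adjusted *P* = 0.845 between N and C and 0.665 between NP and N).

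The regulators lay nearer to 0. Of 22 tested, 16 were lower in N than on chow, with a median of -0.08, none passed the limma test, and 2 were lower and 1 higher at an unadjusted *P* value under 0.05. *Ppara*, which encodes PPARα, had an FPKM of 20.8 and 19.1 on chow, 23.0 and 30.4 on the NASH diet alone and 27.1 and 27.6 with pemafibrate. It was higher on the NASH diet in all 4 libraries, by 0.39 between N and C and 0.44 between NP and C (limma adjusted *P* = 0.318 and 0.569). The coactivator *Ppargc1a* had 65.5 and 41.4, 70.7 and 44.1, and 59.4 and 31.4 FPKM, with replicate 1 above replicate 2 in every group. The mitochondrial deacetylase *Sirt3*, also named after its values were seen, had 40.6 and 40.5, 28.8 and 28.6, and 31.6 and 32.1, a log2 difference of -0.49 between N and C (limma adjusted *P* = 0.0911).

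Of 16 genes known to respond readily to PPARα or to fasting, 12 were tested. For N against C, 11 of these were lower, with a median of -0.53, and none passed the limma test or had an unadjusted *P* value under 0.05. For NP against N, 9 were lower, against 44% of all genes, with a median of -0.46. At an unadjusted *P* value under 0.05 in limma, 2 were lower, against 5.83% of all genes. For NP against C all 12 were lower, against 52.8%, with a median of -0.70, and 10 did not overlap, against 23%. In that comparison 6 were lower at an unadjusted *P* value under 0.05 in limma, against 4.18%. None of the 12 passed in either comparison. In 3 of the 12 the N libraries lay far apart. *Pdk4*, which holds back pyruvate dehydrogenase, had an FPKM of 1038 and 1108 on chow, 996 and 129 on the NASH diet alone and 338 and 89.5 with pemafibrate. *Ucp3*, a mitochondrial uncoupling protein, had 66.5 and 82.2, 67.1 and 13.7, and 19.5 and 15.4, and *Angptl4*, an inhibitor of lipoprotein lipase, had 35.5 and 32.8, 39.1 and 5.60, and 9.56 and 3.32. Replicate 1 of the N group was level with the C group in all 3 genes, and replicate 2 was near the NP group. Other genes of the list differed from this pattern. *Txnip*, a regulator of glucose uptake named after its values were seen, had 619 and 587, 468 and 170, and 558 and 157 FPKM. Its N libraries also lay apart, but its replicate 1 of NP was near the C group. The NP libraries lay apart in *Txnip* as they did in *Pdk4* and *Angptl4*. For *Pdk4*, *Ucp3* and *Angptl4* the limma adjusted *P* values between N and C were 0.533, 0.452 and 0.605. Among the 40 genes, replicate 2 was lower than replicate 1 for 26 in the N group, with a median difference of -0.14.

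Some values carry uncertainty from shared sequence. In GENCODE M21 (mm10), 81.4% of the exon bases of *Cpt1b* are shared with a read-through gene on the same strand, and 53.0% of those of *Etfb* with a gene model on the same strand. Neither of these overlapping genes has values in the deposited data, so whether reads were divided with them cannot be seen. Of the exon bases of *Acadvl*, 42.9% are overlapped by *Dvl2* on the other strand, which had a mean FPKM of 2.54. *Acot2* has a close copy in *Acot1* and *Acaa1a* one in *Acaa1b*, between which reads can be split. *Acaa1b* was at 0.36 and 5.57 FPKM in the C libraries and at most 0.62 in the others, the high value being in the library with the hepatocyte markers.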

How the data were processed

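Heart RNA of 3 groups of mice was sequenced as 6 libraries. Per the labels and the study's methods, the authors mapped single-end reads to mm10 with TopHat2 2.0.13, Bowtie2 2.2.3 and SAMtools 0.1.19, and the deposited values are FPKM from Cufflinks 2.2.1. The annotation is not given in the sources used here, and the kit kept strand, but whether counting used it is not stated. The labels name the heart as tissue, while their extraction text speaks of liver.

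Values entered the model as log2(FPKM + 1), unscaled. The filter kept the 12923 genes whose mean over the libraries was at least 0.5 FPKM, and 1 linear model with 3 groups (3 residual degrees of freedom) was fitted with limma 3.58.1 in R 4.3.3, with empirical Bayes moderation following the mean level. *P* values were adjusted by Benjamini-Hochberg over all genes tested, with a threshold of 0.05. An exact permutation test of 2 against 2 libraries cannot give a *P* value under 0.333 and was not used. The procedure was tested on simulated data. Lists were described by counts and medians, without a set test.

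Named genes were the 6 with the largest moderated statistics in each comparison, the highest of each step, further genes listed with the design, of which some are not reported here, and others by step with their values. The members and lists were chosen with earlier results of these data known. Depth was estimated by taking 200 bases off the transcript length and finding, for each depth, the share of low values that lie near whole reads. The smallest depth with a share close to the highest was taken and moved to the best depth near it (75.5% to 80.0% of values of up to 5 reads within 0.1). Python 3.11.15, pandas 2.3.3 and matplotlib 3.10.9 were used.

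Alternatives were other scalings (total, median, quantile), a pseudocount of 0.1, no filter or a mean of at least 2 FPKM, only the 2 groups compared, no trend, the replicate number as a block, and leaving out each library.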

Additional observations from a re-analysis of the deposited data

How the results depend on the processing

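When the model held the replicate number as a block, 2 of the 40 genes passed between N and C, *Acadm* and *Ech1*, with a smallest adjusted *P* value of 0.0402. Under each other alternative 0 of the 40 passed in all 3 comparisons. The labels do not say what the replicate number marks, so it was not taken as a pairing. The difference between replicates correlated across genes, which are not independent, at 0.458 between N and NP, 0.0471 between C and N and 0.124 between C and NP (Pearson). With FPKM scaled to the same total, the median was -0.157 between N and C and -0.151 between NP and C. Genes lower at an unadjusted *P* value under 0.05 in limma numbered 4, against 1.9% of all genes, and 7, against 1.42%. Genes without overlap numbered 19 between N and C, all lower, against 11% of all genes. Between NP and N they numbered 9, of which 7 were lower, against 16.3% of all genes. Quantile normalization gave a median of -0.222 between N and C. Between NP and C it gave 10 genes lower at an unadjusted *P* value under 0.05 in limma, against 3.03% of all genes. With cardiomyocyte markers set equal, added after the data were seen, the medians were -0.00165 (N and C), -0.196 (NP and N) and -0.169 (NP and C). Those of all genes were 0.299, -0.167 and 0.124. Genes lower were 20 (N and C) and 39 (NP and N), against 11.1% and 84.4% of all genes. Genes without overlap were 7 lower and 6 higher (N and C) and 22 lower and 0 higher (NP and N). Over all genes, 3.08% and 41.2% were lower without overlap. Genes lower at an unadjusted *P* value under 0.05 in limma were 0, 5 and 7, against 0.58%, 15.4% and 1.38% of all genes. *Acads*, *Cpt2* and *Lpl* reversed between NP and N (-0.0389, -0.0542 and -0.0217).

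Leaving out each library in turn, with the lone library assumed to vary like the others, called 0 genes. Between N and C the median ranged from -0.393 to -0.267 and genes at an unadjusted *P* value under 0.05 from 3 (without C replicate 2) to 20, with 9 without C replicate 1. Between NP and C these ran from 2 (without C replicate 2) to 21, with 8 without NP replicate 1 and 11 without C replicate 1. Between NP and N the median ran from -0.0651 to 0.0613, genes lower from 16 to 28, genes without overlap from 4 to 24 (over 1.5 times the 4 of all libraries without any 1 of the N or NP libraries, where 1 library then stands for its group), unadjusted *P* values under 0.05 from 0 to 3, and *Pex11a* from -0.0131 to 0.431. A mean of at least 2 FPKM removed *Abcd2*. The cause of these shifts was not tested.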

Other observations

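Marker lists of other cell types differed between the groups. Of 4 T and NK cell genes tested, *Nkg7*, *Gzmb* and *Il2rb* were higher in N than on chow, by 1.97, 1.52 and 1.79 on the log2 scale (limma adjusted *P* = 0.00515, 0.0381 and 0.00814), and their list of 7 genes summed to 0.843 and 0.778 FPKM on chow, 11.3 and 13.6 in N and 1.04 and 0.695 in NP. Of 9 macrophage genes, 3 were higher in N than on chow past the test and 6 were lower in NP than in N.

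Of 6 white adipocyte genes tested, 5 had higher means in N than on chow, none passed the limma test and 5 had an unadjusted *P* value under 0.05. *Adipoq*, the adipokine adiponectin, had 0.593 and 1.13 FPKM on chow, 15.96 and 14.6 in N and 1.66 and 11.9 in NP, so that the NP libraries differed from each other. Of 12 lipid droplet genes tested, 9 had lower means in N than on chow, with a median of -0.17, none passed the limma test, and 1 was lower and 1 higher at an unadjusted *P* value under 0.05.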
